A study of Mus musculus with 4 samples.

Results

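The insulin-like growth factor (IGF) system was followed through 9 genes, the ligands Igf1 and Igf2, the receptors Igf1r and Igf2r, the binding proteins Igfbp1, Igfbp2, Igfbp3 and Igfbp4, and Igfals, the acid-labile subunit of the circulating IGF complex. They were chosen by name, with all probes that carry that name, and are 9 of the 30038 gene names on the array. RNA of liver hepatoblasts at embryonic day 13 (E13, n = 2) and of liver hepatocytes of mice aged 8 weeks (adult, n = 2), both of the inbred strain C57BL/6NCr, had been hybridised to 4 one-colour Agilent arrays. No allele or treatment is given for either group. Hepatoblasts are the fetal progenitors of hepatocytes and bile duct cells, and the comparison asks how their expression differs from that of the mature cell. The labels give no method of isolation and do not state that replicate samples are separate animals. Each p-value therefore covers the spread between the replicates as deposited, and this spread may be technical only.

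IGFs are secreted peptides that promote growth by activating the tyrosine kinase receptor encoded by Igf1r. Igf2 is the main ligand of the fetus and Igf1 the main ligand after birth, when growth hormone stimulates its production in the liver, the chief source of the circulating hormone. Binding proteins carry IGFs in blood and tissue and control their access to receptors. Igf2r, also the cation-independent mannose 6-phosphate receptor, takes up Igf2 for degradation in lysosomes.

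Sequences that the array measured are shown for the 4 genes called higher in adult. For Igf1, Igfbp2 and Igfals it is the probe that stands for the gene, and for Igfbp4 it is its second probe, which was called in the same direction. Each is a 60-base probe copied from the array files and printed 5′ to 3′ in the sense of the transcript, in lower case throughout because the whole stretch is the target. On the mouse build mm9 named in the files, the Igf1 probe lies at chr10:87376418-87376477 on the plus strand, the Igfbp2 probe at chr1:72898677-72898736 on the plus strand, the Igfbp4 probe at chr11:98909591-98909650 on the plus strand and the Igfals probe at chr17:25018251-25018310 on the plus strand.
Igf1: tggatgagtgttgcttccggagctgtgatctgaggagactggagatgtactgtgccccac
Igfbp2: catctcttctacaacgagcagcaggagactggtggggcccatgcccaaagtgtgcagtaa
Igfbp4: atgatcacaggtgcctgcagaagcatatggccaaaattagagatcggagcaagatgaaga
Igfals: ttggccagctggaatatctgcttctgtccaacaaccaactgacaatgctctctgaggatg

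All values below are processed signals on a log2 scale, each array set to 0 at its own 75th percentile. The scanner software marked between 23033 and 23757 of 41174 probes as well above background in E13 and between 19285 and 20024 in adult. Over the 17930 probes detected everywhere, Pearson's r was 0.993 between the E13 arrays, 0.989 between the adult arrays and 0.789 to 0.809 across the groups. The hepatocyte and hepatoblast markers bore out the labels, with Alb well above background on every array and Afp, the fetal serum protein, at 9.25 and 9.54 in E13 against -1.68 and -1.57 in adult. Markers of other cells also differed. Of 8 stellate and mesenchymal markers 7 were tested and all 7 were higher in E13. The summed linear signal of all 8, relative to the 75th percentile, ranged from 67.7 to 86.1 in E13 and from 8.18 to 9.06 in adult. Reln was the brightest of them in E13 (5.27 and 5.20), and the adult sum came mostly from Acta2. The untested marker, Lrat, read -3.65 and -4.81 in E13 and -3.55 and -2.76 in adult, so it was not higher in E13. These sums thus rest largely on single markers and do not measure the amount of mesenchymal cells. Of 7 macrophage markers 5 were higher in adult (summed signal 0.844 to 1.93 in E13 and 6.12 to 6.89 in adult), the megakaryocyte sum, with all 4 markers higher in E13, was 19.9 to 37.4 in E13 and 0.203 to 0.212 in adult, and the erythroid sum was 47.9 to 197 in E13 and 21.5 to 29.0 in adult. Of 7 erythroid markers 6 were tested, 4 higher in E13, 1 higher in adult and 1 neither. The adult erythroid sum came mostly from Alas2, which read 0.76 and -0.97 in E13 and 4.69 and 4.34 in adult. By contrast, Hbb-b1 read 7.09 and 5.04 in E13 and 0.64 and -1.65 in adult. Of 8 endothelial markers 6 were tested, 2 higher in adult, 1 higher in E13 and 3 neither. The sums were 3.99 to 5.54 in E13 and 3.24 to 3.32 in adult. The E13 endothelial sum came mostly from Stab1, the marker called higher in E13 (2.03 and 1.81, against -0.58 and -0.57 in adult). Kdr and Stab2 were the markers called higher in adult. In RNA of whole samples, fewer cells of a type and less RNA per cell cannot be told apart.

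The IGF genes split evenly between the stages. With 1 probe for each gene and limma's moderated test across 16422 genes (Benjamini-Hochberg adjusted p under 0.05), Igf1, Igfbp2, Igfbp4 and Igfals were higher in adult hepatocytes, Igf2, Igf1r, Igf2r and Igfbp3 were higher in E13 hepatoblasts, and Igfbp1 did not pass. Of the 9 genes 8 were called, which is 88.9%, where 64.8% of all genes tested were called in either direction, 32.1% higher in adult and 32.8% higher in E13. With arrays scaled to spike-in probes instead, the split over all genes moved from 5267 higher in adult and 5380 higher in E13 to 2006 and 11272, and that of the IGF genes from 4 and 4 to 3 and 5. That scaling gave differences of 9.63 for Igf1, -15.88 for Igf2, -4.65 for Igf2r, 4.28 for Igfbp2 and 1.72 for Igfals, all still called. The array values of the groups did not overlap for any of the 9 genes, as for 85.8% of all genes, so neither share sets the IGF genes clearly apart from the array. Their median absolute log2 difference was 3.06, against 0.94 over all genes tested. That median is the fitted value of Igfbp3, which, like Igf2 and Igf1r, was not well above background in adult. The bound for Igfbp3 was 2.52. The 9 genes were chosen with earlier results of these data known, so this contrast is a description only. Both ligands lay beyond the 5th and 95th percentiles of all fitted differences, -3.44 and 3.55, Igf1 at 10.86 and Igf2 also when taken at its bound.

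**Figure D1:**
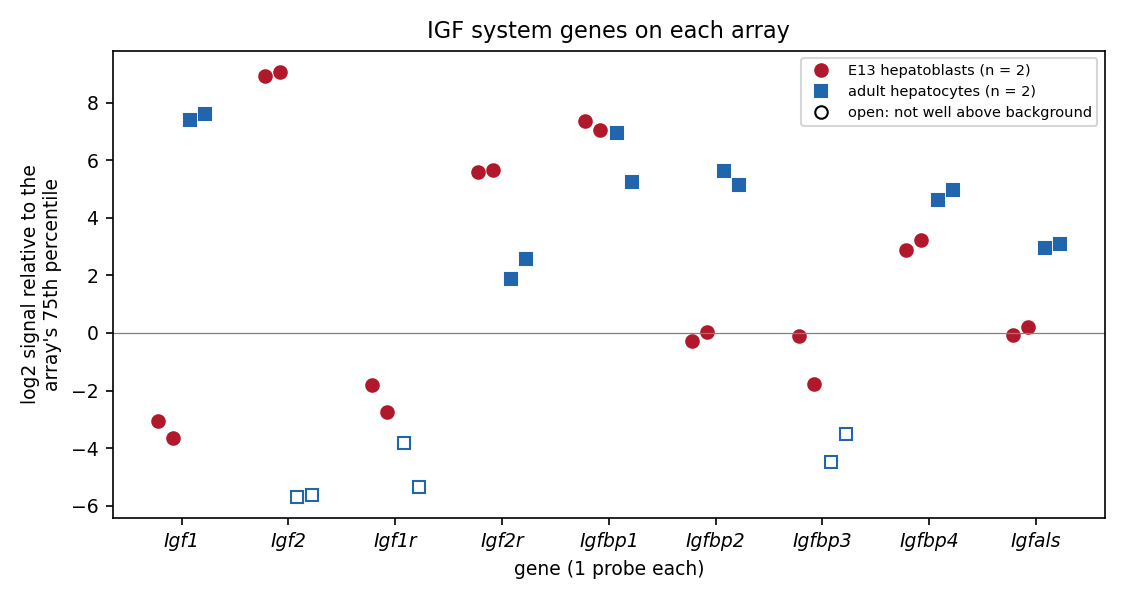
Log2 signal, with 0 at each array's 75th percentile (vertical axis), of the probe used for each of the 9 IGF genes (horizontal axis), 1 point per array, with open symbols where the probe was not well above background. Igf2 lies at 8.92 and 9.07 in E13 and at open symbols near the bottom in adult, Igf1 lies between -3.65 and -3.04 in E13 and between 7.41 and 7.62 in adult, and the 4 Igfbp1 points lie between 5.24 and 7.35.

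The ligands exchanged places. Igf2 read 8.92 and 9.07 on the E13 arrays and -5.68 and -5.62 on the adult arrays, where it was not well above background on either. Its means were 8.99 ± 0.11 and -5.65 ± 0.043 (SD, n = 2 each). By the processed signals Igf2 was thus at least 5583-fold higher in E13 (limma adjusted p = 2.22e-05). This bound, 12.45 in log2, was set by the lowest signal that counted as well above background on the adult arrays. With normexp background correction the fitted difference was smaller than the bound, at -10.96, and still called. This probe was printed at 10 spots on each array, which shows the spread between spots of an array but not that of labelling or hybridisation. Unscaled processed signals of the 10 spots ran from 244396 to 291038 on E13 array 1 and from 232496 to 262138 on E13 array 2. On the adult arrays they ran from 4.19 to 5.51 and from 5.06 to 5.97, with 0 of 10 spots well above background on either. The spots of an array therefore spanned a small fraction of the gap between the groups. The files place 37 of the probe's 60 bases at chr7:149836673-149836709 on the minus strand. A second Igf2 probe at chr7:149837115-149837174 gave 7.66 and 7.80 in E13 and -5.59 and -5.56 in adult, at least 2321-fold higher in E13. The tested mesenchymal markers, given above, were also higher in E13, and the part of such cells in the Igf2 difference was not tested.

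Igf1 moved the other way. Its probe read -3.04 and -3.65 in E13 and 7.41 and 7.62 in adult, detected on all 4 arrays and with no overlap. The means of -3.34 ± 0.43 and 7.51 ± 0.15 (SD, n = 2 each) differed by 10.86 ± 0.25 (SE), or 1857-fold (limma adjusted p = 5.05e-05). Igf1 has 4 probes along chr10, and every one was called higher in adult. The 1 printed at 10 spots per array, at chr10:87393516-87393575, gave -3.23 and -4.60 in E13 and 7.45 and 7.56 in adult, a difference of 11.42 ± 0.47. On E13 array 1 all 9 spots kept were well above background, at unscaled signals of 49.5 to 65.3, but on E13 array 2 only 1 of 10 spots was, and signals reached at most 23.8. The low fetal level of Igf1 thus sat at the limit of detection, and fetal spots of this probe scattered with an SD of 0.14 and 0.36 against 0.031 and 0.019 on the adult arrays. The probe at chr10:87396567-87396626 read -4.32 and -5.53 in E13 and 3.80 and 4.21 in adult. The probe at chr10:87325382-87325441, which carries a cDNA accession (AK050118), was not well above background in E13 and at 1.13 on both adult arrays, at least 52.9-fold higher in adult. Macrophages can also make Igf1, and macrophage markers were higher in adult as given above. The part of these cells in the Igf1 difference was not tested.

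**Figure D2:**
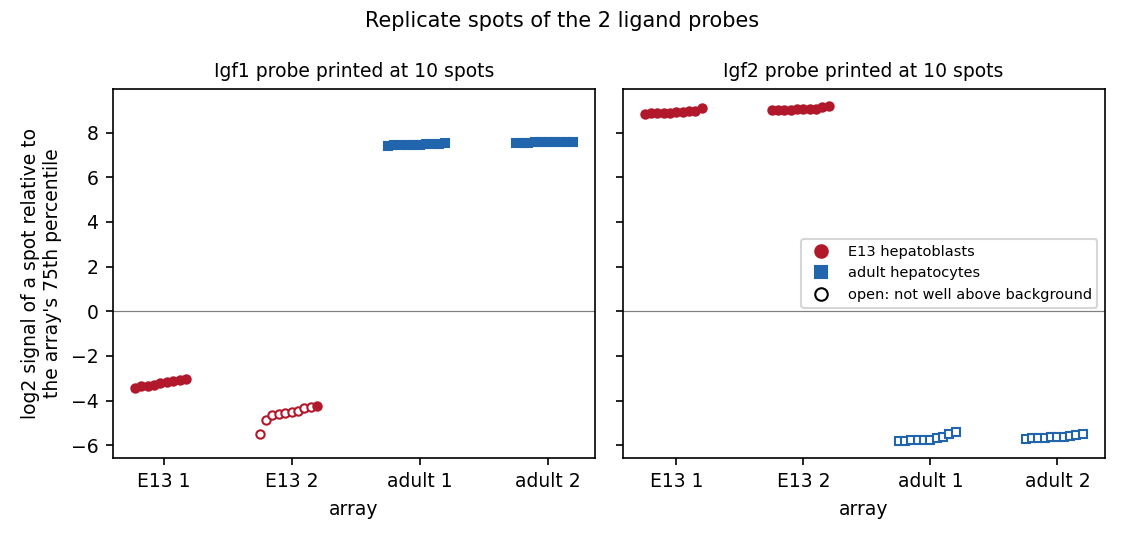
Log2 signal, with 0 at each array's 75th percentile (vertical axis), of each spot kept of the Igf1 and Igf2 probes printed 10 times on each of the 4 arrays (horizontal axis), sorted by value within an array, with open symbols for spots not well above background. The adult Igf1 spots lie between 7.40 and 7.60 and the E13 Igf2 spots between 8.83 and 9.20, each far above all spots of the other group.

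Both receptors were higher in E13, with unequal certainty. Igf2r, the clearing receptor of Igf2, read 5.59 and 5.68 in E13 and 1.87 and 2.57 in adult, on all 4 arrays well above background. The difference of -3.41 ± 0.27 (SE) made it 10.6-fold higher in E13 (limma adjusted p = 0.000689). The files place only 11 of this probe's 60 bases on mm9, at chr17:12875253-12875263 on the minus strand, and no other probe carries the name. Igf1r, the signalling receptor, was dim throughout. Its probe at chr7:75371556-75371615 read -1.80 and -2.74 in E13 and -3.82 and -5.34 in adult, where neither array was well above background. By the bound, Igf1r was at least 2.27-fold higher in E13 (limma adjusted p = 0.0263). That bound, 1.18 in log2, is for the processed signals, and the normexp difference given below is smaller. A second probe at chr7:75376998-75377057 read -1.35 and -2.48 in E13 and -5.80 and -5.68 in adult, at least 2.91-fold higher in E13, and 2 further Igf1r probes were not well above background on any array, where their groups overlapped. The call for Igf1r depended on single arrays. The fitted difference was -1.84 without E13 array 1 (limma adjusted p = 0.106) and -1.55 without adult array 2 (limma adjusted p = 0.0585), and with normexp background correction it shrank to -0.82 while still called.

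Of the binding proteins, Igfbp2 and Igfbp4 were higher in adult. Igfbp2, a binding protein abundant in fetal and adult serum, read -0.29 and 0.020 in E13 and 5.62 and 5.14 in adult. The difference of 5.51 ± 0.23 (SE) corresponds to 45.5-fold (limma adjusted p = 0.000142). Igfbp4, which generally restrains IGF action, read 2.87 and 3.24 in E13 and 4.62 and 4.95 in adult at its probe at chr11:98913334-98913393, a difference of 1.73 ± 0.21 or 3.32-fold (limma adjusted p = 0.00254). The Igfbp4 probe whose sequence is printed above read 1.60 and 1.93 in E13 and 3.56 and 3.82 in adult, or 3.80-fold higher in adult. This call rests on the scaling: with arrays scaled to 8 spike-in probes the Igfbp4 difference was 0.50 (limma adjusted p = 0.0698).

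Igfals encodes the subunit that holds IGF and its binding protein in the large, long-lived complex of serum, and it is made almost only by hepatocytes. It read -0.062 and 0.22 in E13 and 2.95 and 3.11 in adult, well above background on all arrays. The difference of 2.95 ± 0.17 (SE) corresponds to 7.73-fold (limma adjusted p = 0.00032), lower under spike-in scaling as given above. Its sequence is among those printed above. Igfbp3, the usual partner of Igfals in that complex, went the other way. It read -0.094 and -1.77 on E13 arrays 1 and 2 and -4.48 and -3.51 in adult, where it was not well above background. By the bound, Igfbp3 was at least 5.74-fold higher in E13 (limma adjusted p = 0.0141). That bound, 2.52 in log2, is for the means of both arrays. Differences given below without E13 array 1 and with normexp correction are smaller. The Igfbp3 probe lies at chr11:7106594-7106653 on the minus strand. The other 2 probes were not tested and did not show this direction. The probe well above background on 1 E13 array alone read -3.99 and -4.70 in E13 and -3.62 and -3.59 in adult, and the other was not well above background on any array. The direction given for Igfbp3 thus rests on a single probe. Without adult array 1 the Igfbp3 difference was -2.58 (limma adjusted p = 0.0619), without E13 array 1 it was -2.22, and with normexp correction it was -1.07, still called. In liver Igfbp3 is known as a product of non-parenchymal cells, and most markers of such cells stood higher on E13 array 1 than on array 2, as Igfbp3 and Igf1r did. This held for 7 of 8 mesenchymal, 7 of 8 endothelial and 6 of 7 macrophage markers, the exceptions being Acta2, Tek and Cd68, and for all 7 erythroid markers. It also held for all 4 megakaryocyte and all 3 mesothelial markers. Hepatocyte and hepatoblast markers were split, 4 of 8 higher on E13 array 1, as were bile duct markers, 3 of 5. The share over all genes was not computed. The size varied, from Reln at 5.27 and 5.20 to Col3a1 at 2.77 and 1.29 and Kdr at -1.71 and -4.04. Of the mesenchymal list Des, Col1a1 and Pdgfrb were not well above background in adult. The part of these cells in the Igfbp3 and Igf1r differences was not tested.

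Igfbp1, which insulin represses and fasting induces in liver, was bright on every array and was the 1 gene that did not pass. It read 7.35 and 7.04 in E13 and 6.96 and 5.24 in adult, so that adult array 1 lay close to the E13 values and adult array 2 well below. The means of 7.20 ± 0.22 and 6.10 ± 1.22 (SD, n = 2 each) differed by -1.10 ± 0.60 (SE; limma adjusted p = 0.168). The result depended on which adult array was used. It was -1.96 without adult array 1 (limma adjusted p = 0.00593) and -0.23 without adult array 2 (limma adjusted p = 0.386). It was also called higher in E13 with normexp correction (-1.27, limma adjusted p = 0.0273) and with spike-in scaling (-2.33, limma adjusted p = 0.00828). The Igfbp1 probe lies at chr11:7102442-7102501 on the plus strand.

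Of 19 probes 15 were tested, 8 were called higher in adult, 6 higher in E13 and 1 neither, where of all 23463 probes tested 63.6% were called, 30.7% higher in adult and 32.9% higher in E13. In the 4 genes with several tested probes these were called in 1 direction, but probes dim in 1 group were tested only because the other group was bright, so the filter favours such agreement. Of the 4 untested probes, which belong to Igf1r and Igfbp3, none repeated the difference of the tested ones. Of the 19 probes 14 carry a transcript accession that RefSeq pairs with the same symbol.

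**Figure D3:**
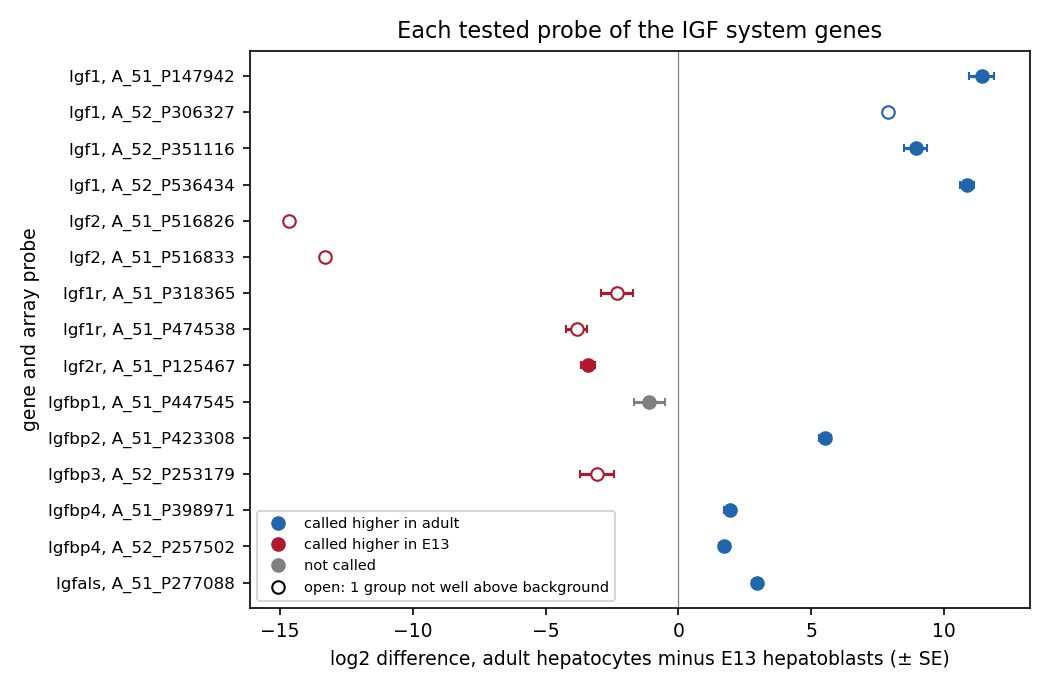
Log2 difference of adult hepatocytes minus E13 hepatoblasts (horizontal axis, ± SE of the limma fit) for each of the 15 tested probes of the IGF genes (vertical axis), coloured by call, with open symbols where 1 group was not well above background and the fitted value is no bound. The 4 Igf1 probes lie between 7.89 and 11.42, the Igf2 probes are the farthest on the other side, and the Igfbp1 probe lies nearest to 0.

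Promoter sequences of all 9 genes, 15 starts in all, were taken from RefSeq on GRCm38.p6, a later build than that of the probes, and the 250 bases before each start were searched on both strands for 4 short motifs. The letters TTCNNNGAA, the core of sites for STAT factors downstream of growth hormone, occur in 7.02% of 32851 such promoters and were found for Igfals alone, at 2 of its 3 starts. The letters CAAAACAA of the insulin response element, bound by FOXO factors, occur in 2.21% and were found for Igfbp1 alone. TATAAA occurs in 12.4% and was found for Igfbp4 alone, and GGGCGG, the GC box, occurs in 32.7% and was found at 7 of the 15 starts. A match is a description of the letters only. For Igfbp1 the whole window at chr11:7197537-7197786 on the plus strand is shown, and for Igfals and Igfbp4, both on the plus strand, 30 bases at chr17:24878163-24878192 and chr11:99041206-99041235, with the motif in capitals.
Igfbp1: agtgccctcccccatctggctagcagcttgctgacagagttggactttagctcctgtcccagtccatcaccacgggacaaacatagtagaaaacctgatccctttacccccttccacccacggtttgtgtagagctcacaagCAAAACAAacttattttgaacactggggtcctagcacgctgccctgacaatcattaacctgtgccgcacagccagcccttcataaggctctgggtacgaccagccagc
Igfals: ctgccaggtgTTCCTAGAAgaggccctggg
Igfbp4: agggggccggTATAAAgtcccgggagccgg

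Growth hormone acts on Igf1 and Igfals through its receptor Ghr, the kinase Jak2 and the STAT5 factors. Of 12 genes listed for this route all 12 were tested, 4 were higher in adult, 1 was higher in E13 and 7 did not pass. The share called was 41.7%, against 64.8% of all genes, and the median difference 0.27 against -0.0097 over all genes tested. Ghr itself read 2.65 and 2.35 in E13 and 5.52 and 5.63 in adult, 8.45-fold higher in adult (limma adjusted p = 0.000287). Its other probes gave 2.12-fold, 18.8-fold and 18.4-fold, all higher in adult. The related prolactin receptor Prlr was 45.6-fold higher (limma adjusted p = 0.000141) and Socs2, a feedback inhibitor that growth hormone induces, 13.1-fold higher (limma adjusted p = 0.000808). Other Prlr probes, not well above background in E13, gave at least 18.2-fold and 24.9-fold. Jak2 differed by 0.17 (limma adjusted p = 0.401) and Stat5a by 0.045 (limma adjusted p = 0.801), neither called. Socs1, another feedback inhibitor, was at least 1.87-fold higher in E13 (limma adjusted p = 0.0038), a call lost with normexp correction. Spike-in scaling, which moved the median of all genes to -1.24, left Ghr (1.85), Prlr (4.28) and Socs2 (2.48) called higher in adult but brought 7 genes of the list to a call in E13, among them Jak2 at -1.07 and Stat5a at -1.19.

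Downstream of Igf1r and the insulin receptor, differences were mostly small. Of 26 genes listed 24 were tested, 11 higher in adult, 4 higher in E13 and 9 neither, which is 62.5% called against 64.8% of all genes, with a median of 0.24. Under spike-in scaling 0 were higher in adult and 14 higher in E13, so the direction of this list depends on the scale. Grb10, an imprinted adaptor that inhibits both receptors, stood far from the rest. It read 6.50 and 6.55 in E13 and -1.35 and -2.97 in adult, 412-fold higher in E13 (limma adjusted p = 0.000395). The log2 difference was -9.50 without adult array 1 and -7.87 without adult array 2. Grb10 was at least 38.5-fold and 33.8-fold higher in E13 at its other probes, which were not well above background in adult. Its relative Grb14 was higher in adult by 1.54 (limma adjusted p = 0.00156), as was the substrate Irs4 by 1.66 (limma adjusted p = 0.00438), both calls lost under spike-in scaling. The adaptor Gab1 differed by -1.16 (limma adjusted p = 0.00752). The adaptors Irs1 (0.17) and Shc1 (0.016) did not pass.

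Proteins that alter the binding proteins gave few measurable genes. Of 6 proteases and inhibitors 3 were tested and all 3 were called, where 64.8% of all genes tested were. With so few genes this share is a description only. Pappa, a protease that cleaves Igfbp4, and its inhibitor Stc2 were called higher in E13 with no fold, since neither was well above background in adult, at -3.68 and -3.90 on average in E13 (limma adjusted p = 0.000472 and 0.00118). With normexp correction neither was called higher in E13, and the fitted differences were 0.068 and 0.20. Htra1, a serine protease, was at least 3.57-fold higher in adult (limma adjusted p = 0.00719). With normexp correction its difference was 1.21, still called, where the bound was 1.84 in log2. Of 4 further IGF-binding or related genes 2 were tested, and both were higher in adult, where 32.1% of all genes tested were. Again the list is too short for its share to be more than a description. Igfbp5 read -2.46 and -3.59 in E13 and -1.26 and 0.51 in adult (2.65 ± 0.71, limma adjusted p = 0.028). Another Igfbp5 probe was not well above background on any array and was not tested. Igfbp7 read 1.63 and 0.82 in E13 and 2.22 and 2.70 in adult (1.24 ± 0.34, limma adjusted p = 0.0299). Both calls were lost with spike-in scaling, without E13 array 2 and without adult array 2.

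Igf2r also sorts mannose 6-phosphate tagged enzymes. Of 10 genes listed as partners of Igf2r all 10 were tested, 5 higher in adult, 3 higher in E13 and 2 neither. Plg and Plaur are among them but have no part in this sorting. Of the whole list 80.0% were called, against 64.8% of all genes, with a median of 0.40. Under spike-in scaling 0 were higher in adult and 5 higher in E13. The clathrin adaptors Gga2 and Gga3 differed by -2.21 (limma adjusted p = 0.000369) and -0.88 (limma adjusted p = 0.0157), and Plaur, the urokinase receptor, by -1.24 (limma adjusted p = 0.00746), in the direction of Igf2r. The Plaur call was lost with normexp correction (-0.034, limma adjusted p = 0.861), and that of Gga3 without E13 array 1 (limma adjusted p = 0.0734), without E13 array 2 (limma adjusted p = 0.0751) and at a 2-fold threshold. Nagpa (1.72, limma adjusted p = 0.00276) and Gnptg (1.10, limma adjusted p = 0.0037), which help to make the tag, and Plg, plasminogen (1.54, limma adjusted p = 0.00148), were higher in adult. All 3 calls were lost under spike-in scaling, where Gnptg stood at -0.13. M6pr, the smaller mannose 6-phosphate receptor, differed by -0.023 and the adaptor Gga1 by -0.54, neither called.

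Igf2 and Igf2r are both imprinted in mouse, and their neighbours on the chromosome were listed too. Of 8 genes 7 were on the array by name and 4 were tested, 1 higher in adult, 2 higher in E13 and 1 neither. Over all genes tested 64.8% were called, 32.1% higher in adult and 32.8% higher in E13. With only 4 genes tested, the calls of this list are a description and do not set it apart from the array. H19, the untranslated RNA next to Igf2, read 9.03 and 9.28 in E13 and -2.81 and -2.78 in adult, 3958-fold higher in E13 (limma adjusted p = 2.72e-05). Ins2, on the other flank of Igf2, was near background in both groups and did not pass. Airn, the RNA transcribed across Igf2r in the opposite sense, was at least 5.25-fold higher in E13 (limma adjusted p = 0.000409), the direction of Igf2r. This is the brightest of its 4 probes, all called that way, and the others gave at least 3.15-fold to 3.49-fold. None of the 4 was well above background in adult, so all were tested through E13 alone. With normexp correction the Airn difference was -1.05, still called but smaller than the bound of 2.39 in log2.

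**Figure D4:**
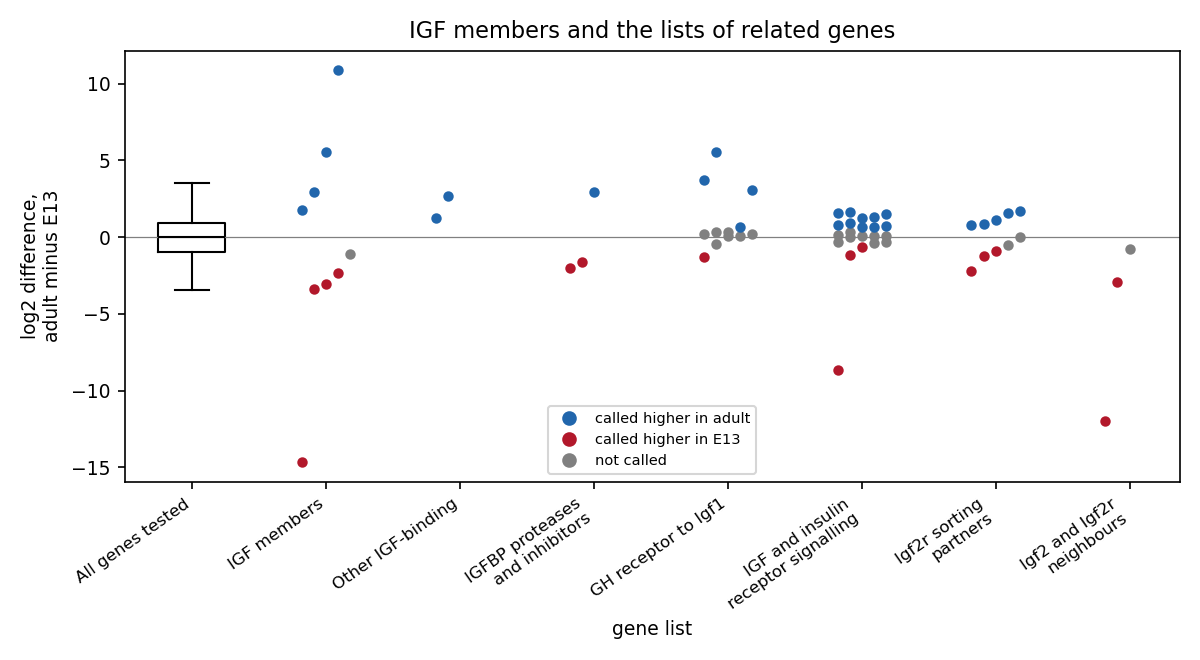
Log2 difference of adult hepatocytes minus E13 hepatoblasts (vertical axis) for the 9 IGF genes and the tested genes of the 6 related lists that are reported here (horizontal axis), 1 point per gene coloured by call, beside a box of all 16422 genes tested (box, 25th to 75th percentile; whiskers, 5th and 95th, at -3.44 and 3.55). Igf1, Igf2, Grb10 and H19 lie far outside the whiskers, and a dim gene is drawn at its fitted value.

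Profiles most like those of the ligands were sought among all other genes tested, as the root mean square difference over the 4 arrays after each gene was centred on its own mean. Nearest to Igf1 were Cml2 (0.105), Tdo2 (0.169), which encodes the tryptophan-degrading dioxygenase of hepatocytes, and Cyp2c54 (0.177), a cytochrome P450 gene. None of these 3 was well above background in E13, so their distances rest partly on values without a measured level. Nearest to Igf2 were Bex2 (1.28), H19 (1.35) and Bex1 (1.41), with Bex1 and Bex2, like Igf2, not well above background in adult. With 2 groups of 2 arrays, this likeness reflects mainly the size of the difference between the stages.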

How the data were processed

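The authors deposited 1 scanner file per array, whose processed intensity was made by Agilent Feature Extraction 10.7.3.1, per the file headers, with probe coordinates on mm9. Their deposited log2 values correlated at r = 1 with the log2 of these intensities on every array and served as an alternative. All 4 arrays lay on 1 slide with 1 scan time. Samples were grouped by their titles.

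Processed intensities were taken to log2, spots flagged as outliers and 1639 control spots were left out, replicate spots were averaged, and the array's 75th percentile was subtracted. Testing required that a probe be well above background on every array of the E13 or of the adult group, and the brightest tested probe stood for its gene. The fit used limma 3.58.1 (lmFit, eBayes; residual degrees of freedom 2, prior 2.55) in R 4.3.3, over all features, and was tested on simulated data. A bound ("at least") is the bright mean minus the mean, over dim arrays, of the probe's own value or, where that is lower, of the dimmest signal marked well above background. The bound is for the means of the processed signals, and a single array or another background correction can give less. Adjusted p-values in the text are those of the gene fit, and a fold under 1 by the bound is not given.

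Members and lists were chosen with earlier results of these data known. Named were all members, and of each list the 3 called genes per direction with the largest fitted difference and the first 2 uncalled. A few genes that this rule names are left out of the text and figures but stay in the list counts. Exon positions of probes were not analysed here. The number of arrays limits the precision. Alternatives were other background correction, scalings, filters and probe rules, trend and robust eBayes, a 2-fold threshold, each array left out, and the replicate number as a block.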

Additional observations from a re-analysis of the deposited data

How the results depend on the processing

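Igf1, Igf2, Igf2r, Igfbp2 and Igfals kept their direction and call under every alternative that gave a value, with fitted ranges of 9.31 to 11.16, -15.88 to -10.96, -4.65 to -3.07, 4.28 to 5.75 and 1.72 to 3.09. With only probes detected on all arrays, Igf2, Igf1r and Igfbp3 had no tested probe, 1 member was called higher in E13 and 6 member probes were called. Scaling to the spike-in probes gave 2006 genes higher in adult and 11272 higher in E13, and with no filter on dim probes 14614 were higher in adult. Median differences of all genes were 0.21 (normexp), -0.12 (quantile), -1.24 (spike-in), 0.75 (no filter) and 0.15 (probes detected on all arrays). Leaving out single arrays gave 3842 to 4948 genes higher in adult, 3949 to 5210 higher in E13, 4 members higher in adult, 3 to 4 higher in E13 and 13 to 14 member probes called.

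Of the list genes named, 15 of 441 values over 28 genes reversed in sign: with normexp Ins2 (0.54), Pappa (0.068) and Stc2 (0.20), with scaling to the median of commonly detected probes Shc1 (-0.024), and with spike-in scaling Gnptg (-0.13), Irs1 (-1.07), Jak2 (-1.07), Shc1 (-1.22) and Stat5a (-1.19). Leaving out single arrays gave ranges that cross 0 for Ins2 (-1.75 to 0.16), M6pr (-0.10 to 0.057), Shc1 (-0.087 to 0.12) and Stat5a (-0.018 to 0.11). The causes were not tested.

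Replicate numbers did not pair the arrays: deviations of same-numbered arrays correlated at -0.156 over genes. With the number as a replicate block 4691 genes were higher in adult and 4844 in E13, and 4 members in each direction. The crossed pairing, added after the data were examined, gave 5337 and 5431 genes and again 4 and 4 members. A block for slide or scan could not be run with 1 slide and 1 scan time. Signal over background limits Igf1r, Igfbp3 and fetal Igf1.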
